A study of Mus musculus with 2 samples.

Results

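MS4A genes encode a family of small proteins that cross the membrane several times and are carried mainly by cells of the blood lineages. Transcript levels of 8 members were measured in mouse macrophages: Ms4a1, Ms4a4a, Ms4a4b, Ms4a4c, Ms4a6b, Ms4a6c, Ms4a6d and Ms4a7. They were taken by symbol, each matched 1 annotated gene, and they are 8 of the 55536 annotated genes measured. All lie in a single cluster on chromosome 19. The cells were bone marrow-derived macrophages of strain C57BL/6J, primary phagocytes grown from marrow, profiled by polyA plus RNA-seq in 2 libraries of 1 group. They received lipid A at 100 ng/ml for 12 h, spent 12 h without it after a wash, and met the same dose a second time for 120 min. Lipid A, the lipid anchor of bacterial lipopolysaccharide, is the agent in the experiment's description, while other label fields say lipoprotein A. The labels call the libraries biological replicates 1 and 2 but give both 1 donor identifier, and do not say that the cells came from separate animals. Spread between them may therefore be technical. No unstimulated or singly stimulated cells were analysed here, so the values describe levels and not a response.

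Ms4a1, known as CD20, is the surface protein of B cells that therapeutic antibodies bind. Other members sit in the membranes of monocytes, macrophages, T cells or mast cells, where several are known to associate with receptors and shape their signals. MS4A4A is known in macrophages as a partner of the beta-glucan receptor dectin-1, Ms4a4b as a T cell protein that modulates activation, and Ms4a2, which is outside the set described here, as the beta chain of the high-affinity IgE receptor. The Ms4a4b and Ms4a4c genes, and the Ms4a6b, Ms4a6c and Ms4a6d genes, arose by duplication and remain close in sequence.

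The duplicated genes with unlike levels are shown first, since their sequences bear on how their reads can be assigned. Ms4a4b and Ms4a4c have coding sequences of 681 bases each, stop codon included, which were identical at 91.8% of alignment positions. Their longest identical run covered bases 321 to 447 of both, counted from the A of the start codon in transcripts Ms4a4b-201 and Ms4a4c-201 of GENCODE M21. The run of 127 bases is printed because a read that falls inside it could come from either gene.
Ms4a4b and Ms4a4c: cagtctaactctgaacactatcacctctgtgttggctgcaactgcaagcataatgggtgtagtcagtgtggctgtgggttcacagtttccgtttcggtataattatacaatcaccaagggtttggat

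The promoters of this pair were also alike. RefSeq promoter windows on build GRCm38.p6 run from 250 bases before to 50 bases after a gene's start, and 6 of the 8 members had one. The window of Ms4a4b lies at chr19:11443308-11443607 and that of Ms4a4c at chr19:11407411-11407710, both on the plus strand. Capitals mark the runs of at least 12 identical bases shared by the pair, 131 bases in all, the longest of 20 bases.
Ms4a4b: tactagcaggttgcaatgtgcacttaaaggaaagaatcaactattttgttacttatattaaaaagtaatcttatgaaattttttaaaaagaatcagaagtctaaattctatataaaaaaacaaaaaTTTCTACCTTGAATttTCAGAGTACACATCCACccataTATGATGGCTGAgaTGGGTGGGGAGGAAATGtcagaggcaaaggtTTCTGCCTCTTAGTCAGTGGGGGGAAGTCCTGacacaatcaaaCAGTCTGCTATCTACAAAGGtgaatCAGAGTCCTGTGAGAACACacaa
Ms4a4c: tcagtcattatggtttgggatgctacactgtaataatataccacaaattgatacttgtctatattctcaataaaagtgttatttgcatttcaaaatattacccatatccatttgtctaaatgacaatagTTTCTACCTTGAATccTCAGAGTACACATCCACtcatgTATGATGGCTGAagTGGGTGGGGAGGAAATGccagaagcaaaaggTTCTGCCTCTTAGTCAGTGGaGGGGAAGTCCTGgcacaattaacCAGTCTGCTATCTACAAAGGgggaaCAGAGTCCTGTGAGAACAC
Identity over the alignment of these windows was 71.4%. Ms4a6b, at chr19:11518309-11518608, and Ms4a6c, at chr19:11469118-11469417, both on the plus strand, were identical at 51.2% of positions. Their likeness sat in a few blocks, capitalised below for 86 bases, with a run of 48 bases at positions 133 to 180 of the Ms4a6b window and 202 to 249 of the Ms4a6c window.
Ms4a6b: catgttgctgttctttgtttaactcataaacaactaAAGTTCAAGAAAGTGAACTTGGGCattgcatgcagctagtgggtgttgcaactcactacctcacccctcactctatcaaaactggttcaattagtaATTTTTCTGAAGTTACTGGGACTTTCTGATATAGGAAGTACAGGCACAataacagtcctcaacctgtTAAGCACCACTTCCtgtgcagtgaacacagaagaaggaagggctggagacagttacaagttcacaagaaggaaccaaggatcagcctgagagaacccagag
Ms4a6c: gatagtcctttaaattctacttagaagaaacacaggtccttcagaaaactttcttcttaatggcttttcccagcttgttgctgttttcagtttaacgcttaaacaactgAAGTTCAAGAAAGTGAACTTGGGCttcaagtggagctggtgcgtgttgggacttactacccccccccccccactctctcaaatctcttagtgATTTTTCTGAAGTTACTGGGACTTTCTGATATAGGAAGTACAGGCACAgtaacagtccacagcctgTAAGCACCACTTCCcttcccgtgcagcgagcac
The other 13 pairs of windows, with only the first listed window of Ms4a7 used, were identical at 40.8 to 47.6% of positions, with no shared run longer than 9 bases.

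Motifs in these windows were searched on both strands. GAGGAA, a core bound by the macrophage factor PU.1 and other ETS proteins, was in windows of Ms4a4b, Ms4a4c and Ms4a7, against 28.3% of all 32851 windows. It starts at position 187 of the Ms4a4b window and position 190 of the Ms4a4c window. Both positions lie inside a capitalised run shared by that pair, which therefore counts as 1 duplicated stretch. GAAANNGAA, a core of interferon-stimulated response elements, was in windows of Ms4a6b, Ms4a6c and Ms4a7, against 8.6% of all windows. In Ms4a6b and Ms4a6c it starts at positions 45 and 118, inside a capitalised run, so they too count as 1 duplicated stretch. GGGACTTTC, an NF-kB motif, was in the windows of Ms4a6b and Ms4a6c, against 0.4% of all windows. It starts at position 150 of the Ms4a6b window and position 219 of the Ms4a6c window, inside the shared run of 48 bases, so the pair counts as 1 duplicated stretch. TGANTCA, bound by AP-1, was in windows of Ms4a4b and Ms4a7, against 7.8% of all windows. Ms4a7 has 2 windows, and a match in either was counted. Matches describe letters only.

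The cells carried abundant transcript of 6 of the 8 members. These 6 reached 10 TPM in both libraries, and all 6 also reached 100 TPM. TPM, a count of transcripts scaled to a fixed total, is corrected for transcript length so that levels of different genes can be set side by side. The correction depends on the transcript models, since few reads on a short model become many TPM, as described below for Ms4a4c. Of 22028 annotated protein-coding genes, 27.2% reached 10 TPM in both libraries. The 8 members were chosen with earlier results of these data known, so their share does not stand for the whole family. Of 15 other MS4A and related TMEM176 genes, 3 reached 10 TPM in both. Ms4a4b was present at a few TPM and Ms4a1 was at or below the counting floor. Summed over the family, the level was 5972 TPM in replicate 1 and 5531 TPM in replicate 2, or 5751 ± 312 TPM (SD, n = 2). Over transcripts with a complete coding sequence only, a scale chosen after the values were seen, the sum was 3795 TPM, most of the difference lying in a short Ms4a4c model described with that gene. Depth was 45377715 and 32112416 expected counts, reads assigned to genes by estimation, and members held 0.357% and 0.315% of them. In bulk RNA, fewer cells that express a gene and less RNA per cell cannot be told apart.

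**Figure D1:**
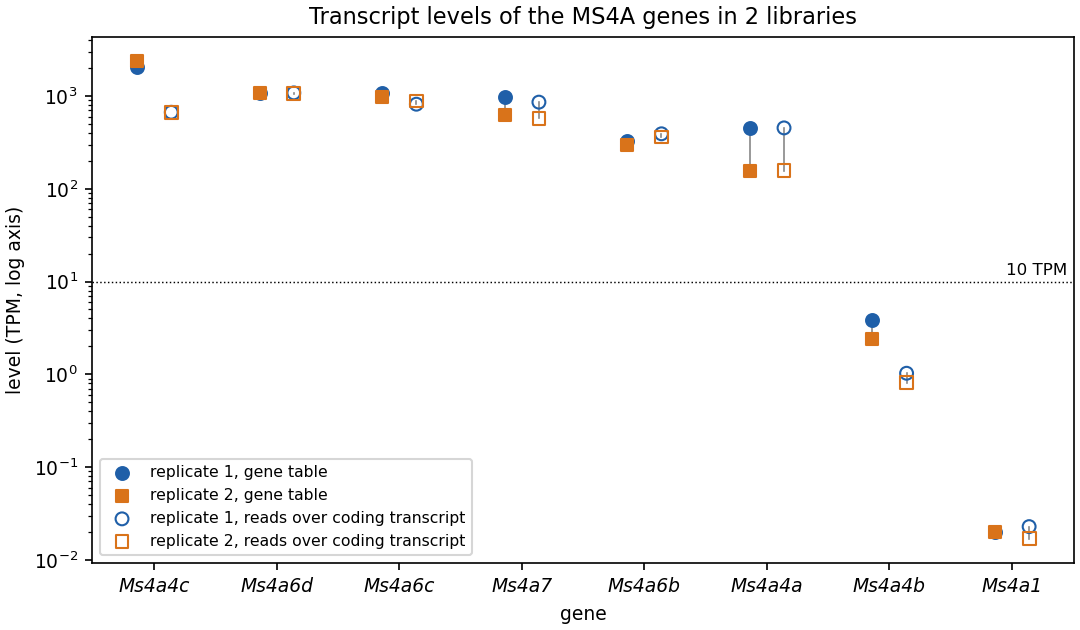
Level of each member in TPM (log axis) in replicate 1 (circles) and replicate 2 (squares). Filled symbols are the gene table and open symbols the gene's reads over its leading complete coding transcript. The 6 abundant genes stand above the dotted line at 10 TPM, and the open symbols of Ms4a4c are far below its filled ones.

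Ms4a4c (ENSMUSG00000024675.19, chromosome 19, 11404770 to 11427246, plus strand) had the highest deposited level, 2038 TPM in replicate 1 and 2404 TPM in replicate 2. Its mean of 2221 ± 259 TPM (SD, n = 2) was rank 41 of all protein-coding genes. Both libraries were high, and neither overlapped any other member. That rank rests on 1 short transcript model. Ms4a4c-203, of 361 bases and with a coding sequence whose end is not annotated, took 71.8% and 77.0% of the gene's TPM but 15.3% and 19.3% of its reads. Its effective length, the number of positions at which a fragment can start, was 100.7 bases in both libraries, which turns few reads into many TPM. It begins at 11404770, upstream of the promoter window printed above, which belongs to the start of Ms4a4c-201 at 11407661. The complete transcript Ms4a4c-201, of 1723 bases, had 25365 and 16328 reads and 562 and 531 TPM. With all reads of the gene placed on Ms4a4c-201, a scale chosen after the values were seen, the level was 668 and 666 TPM and Ms4a4c stood 4th among the members. The second quantification, made without alignments, also gave Ms4a4c the highest level, 1701 and 1772 TPM, with 73.2% of it in Ms4a4c-203 in each library.

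Ms4a4b (ENSMUSG00000056290.16, 11443553 to 11467055, plus strand), the near copy of Ms4a4c, had 3.81 TPM in replicate 1 and 2.38 TPM in replicate 2, from 144 and 77 reads. The libraries were alike in holding little of it, and its mean was rank 8726 of the protein-coding genes. Ms4a4c therefore exceeded Ms4a4b by 535-fold and 1010-fold in deposited TPM, and by 650-fold and 822-fold with reads placed on each gene's complete coding transcript. In the second quantification the ratios were 170 and 285, and Ms4a4b stood at 10.01 and 6.23 TPM there, 2.63-fold and 2.62-fold its gene-table level. Reads given to Ms4a4b amounted to 0.478% and 0.376% of those given to Ms4a4c. Of the distinct stretches of 50 bases in Ms4a4b transcripts, 135 of 8821 also occurred in Ms4a4c, and they include the coding run printed above. How many Ms4a4b reads derive from Ms4a4c was not tested, so the Ms4a4b level is uncertain. Retained-intron models held 81.6% and 78.7% of its TPM but only 31.8% and 37.4% of its reads. Its complete coding transcript held 68.2% and 62.6% of the reads and stood at 0.70 and 0.51 TPM.

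Ms4a4a (ENSMUSG00000101389.1, 11375523 to 11392790, plus strand) had 453 TPM in replicate 1 and 156 TPM in replicate 2. It was the least even of the 6 abundant members. Its mean was 305 ± 210 TPM (SD, n = 2), rank 481. The annotation gives it 1 transcript, of 836 bases, and it was the only member with no stretch of 50 bases shared with another gene. Its coding sequence was identical to those of Ms4a4c and Ms4a4b at 59.6% and 57.9% of positions.

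Among the Ms4a6 genes, Ms4a6d (ENSMUSG00000024679.10, 11586604 to 11604849, minus strand) was the most even, at 1085 TPM in replicate 1 and 1070 TPM in replicate 2. Its mean was 1077 ± 10.1 TPM (SD, n = 2), rank 94. Nearly all of it was 1 complete coding transcript, Ms4a6d-201, with 99.5% and 99.1% of the TPM. Placing the gene's reads on that transcript left 1080 and 1062 TPM, which on that scale was the highest level of the family.

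Ms4a6c (ENSMUSG00000079419.4, 11469366 to 11482192, plus strand) had 1085 TPM in replicate 1 and 978 TPM in replicate 2, a mean of 1032 ± 75.9 TPM (SD, n = 2) and rank 103. Its values overlapped those of Ms4a6d, so these genes are not ordered. A retained-intron model, Ms4a6c-202, held 32.2% of its TPM in replicate 1 and 12.8% in replicate 2. The coding transcript Ms4a6c-201 alone stood at 736 and 853 TPM, in the opposite order of the libraries. The level is uncertain for another reason: BE692007, an antisense transcript over the same region, holds 49.6% of the distinct 50-base stretches of Ms4a6c on the opposite strand. BE692007 was listed at 21.7 and 20.6 TPM, from 2650 and 1722 reads, beside 39866 and 29335 reads for Ms4a6c. Whether counting used strand is not given in the sources used here. The authors' posterior SD of the Ms4a6c count, a measure of doubt in assigning reads, was 22.6 reads on a count of 39866 in replicate 1, against at most 0.17 reads for any other member in either library.

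Ms4a6b (ENSMUSG00000024677.13, 11516512 to 11531256, plus strand) had 326 TPM in replicate 1 and 298 TPM in replicate 2, a mean of 312 ± 19.9 TPM (SD, n = 2) and rank 465. It was below Ms4a6c and Ms4a6d in both libraries, 3.33-fold and 3.28-fold below Ms4a6c. The ratio was 2.08 and 2.44 with reads placed on complete coding transcripts. Its complete coding transcripts Ms4a6b-201 and Ms4a6b-205 shared the level, with 66.0% and 66.4% of TPM in the former and 27.8% and 29.8% in the latter. Ms4a6b-205, with 39.6% and 41.8% of the gene's reads, begins at 11516512, upstream of the promoter window printed above. That window belongs to the start of Ms4a6b-201 at 11518559. In coding sequence Ms4a6b was identical to Ms4a6d at 79.9% of positions and to Ms4a6c at 73.9%, and Ms4a6c to Ms4a6d at 67.0%. The other 24 of 28 pairs of members, leaving out these and the Ms4a4b and Ms4a4c pair, lay between 42.4% and 59.6%. Of the 50-base stretches, 117 occurred in both Ms4a6b and Ms4a6c and 40 in both Ms4a6b and Ms4a6d. The pseudogene Gm5692 overlaps Ms4a4c and the antisense gene Gm19261 overlaps Ms4a6b, and they were listed at 0.08 and 0.12 TPM in replicate 1 and at 0 in replicate 2.

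**Figure D2:**
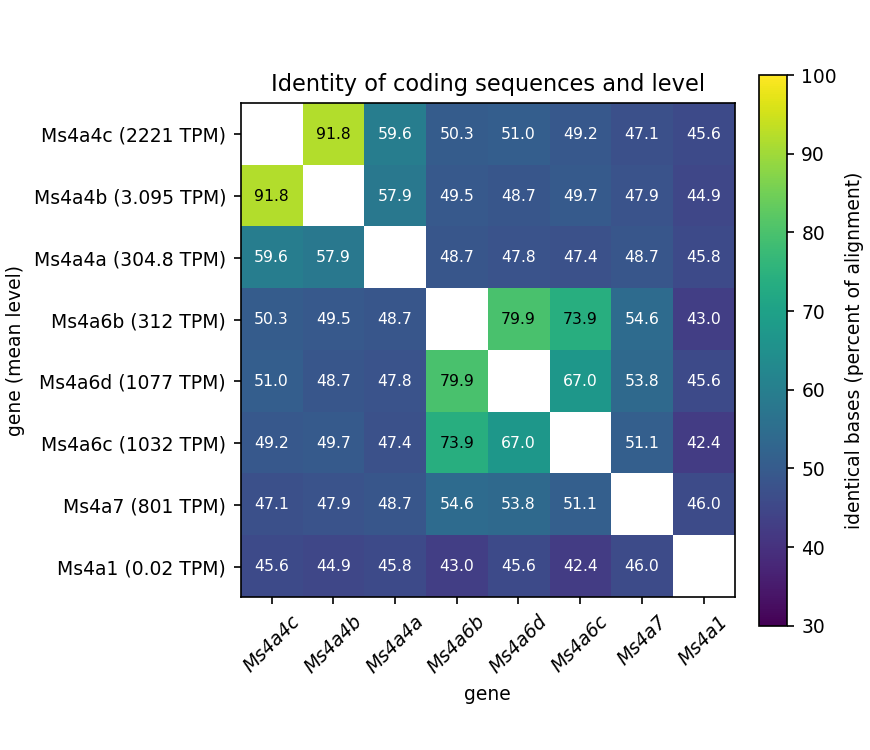
Percent identity of aligned coding sequences for each pair of members, with the mean TPM of each gene beside its name. The most alike pair, Ms4a4b and Ms4a4c at 91.8%, has the lowest and the highest level within its branch, while Ms4a6b, Ms4a6c and Ms4a6d are all above 100 TPM.

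Ms4a7 (ENSMUSG00000024672.11, 11321039 to 11336146, minus strand), a member found on macrophages, had 981 TPM in replicate 1 and 621 TPM in replicate 2. Its mean was 801 ± 254 TPM (SD, n = 2), rank 143. Replicate 1 was the higher library, and the range overlapped that of Ms4a6c but not that of Ms4a6b. The leading transcript Ms4a7-203, with 7 exons and 705 coding bases, held 61.7% and 73.6% of the TPM. Ms4a7-202, with 6 exons and 648 coding bases, held 35.6% and 24.2%.

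Ms4a1 (ENSMUSG00000024673.9, 11249675 to 11266241, minus strand) had 0.02 TPM in both libraries, from 2 reads in replicate 1 and 1 read in replicate 2. The exact 95% Poisson intervals were 0.242 to 7.22 and 0.0253 to 5.57 reads, for counting error only. Both counts are at or below a floor of 3 reads, which is 0.0661 and 0.0934 CPM (counts scaled to library size), so no fold was formed with it. Of 12 B cell markers, 9 were under 1 TPM in both libraries, with Ebf1, Blk, Fcer2a and Vpreb3 listed at 0. The exceptions were Cd22, an inhibitory lectin of the Siglec family, at 68.6 and 48.5 TPM, Cd79b, a chain of the B cell receptor, at 7.31 and 2.47 TPM, and Bank1, a scaffold protein, at 3.57 and 4.52 TPM.

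In deposited TPM the order of means was Ms4a4c, Ms4a6d, Ms4a6c, Ms4a7, Ms4a6b, Ms4a4a, Ms4a4b and Ms4a1. Ranges of the libraries overlapped for Ms4a6d and Ms4a6c, for Ms4a6c and Ms4a7, and for Ms4a6b and Ms4a4a, so ranges did not separate these neighbours. Within each library Ms4a6c was above Ms4a7 in deposited TPM, at 1085 against 981 and 978 against 621. The order of that pair turned in replicate 1 on the scale that follows. With reads placed on the leading complete coding transcript, the order began with Ms4a6d, followed by Ms4a6c at 816 and 882 TPM, Ms4a7 at 859 and 574 TPM and Ms4a4c at 668 and 666 TPM. On that scale the range of Ms4a7 overlapped those of both Ms4a6c and Ms4a4c. Ms4a6b followed at 391 and 362 TPM, and Ms4a4a, Ms4a4b and Ms4a1 kept their places. The sum over the Ms4a4 genes was 2495 and 2563 TPM in deposited TPM, beside 2496 and 2346 TPM for the Ms4a6 genes. With reads placed on complete coding transcripts the sums were 1122 and 823 TPM for the Ms4a4 genes and 2287 and 2306 TPM for the Ms4a6 genes, so the Ms4a6 genes were higher in both libraries on that scale.

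**Figure D3:**
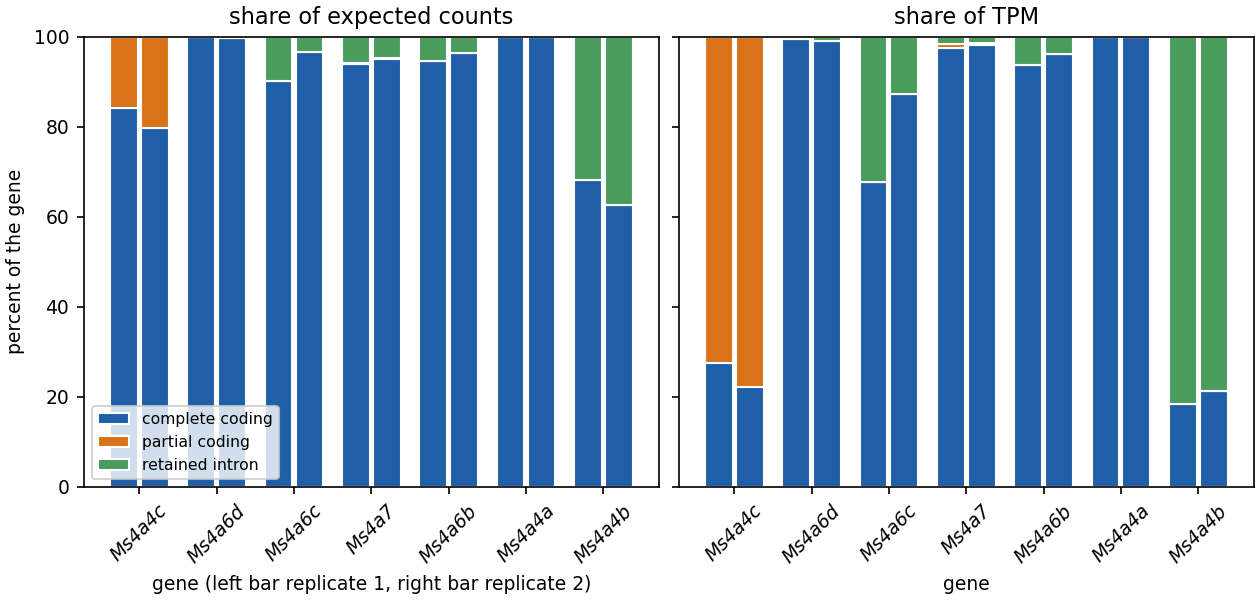
Percent of each gene's expected counts (left) and TPM (right) in complete coding, partial coding and retained-intron transcript models, for replicate 1 (left bar) and replicate 2 (right bar). In Ms4a4c, partial coding models hold 15.9% and 20.3% of reads but 72.4% and 77.9% of TPM. Ms4a1, with 2 and 1 reads, is left out.

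Spread between the libraries was then read from the ratio of expected counts, replicate 2 to replicate 1, on library sizes scaled by the trimmed mean of M-values (TMM). Members entered if their mean expected count was at least 10, which 7 did. Ms4a4a alone passed 2-fold, with 7842 reads in replicate 1 and 1865 in replicate 2, a log2 ratio of -1.51 (exact 95% counting interval -1.585 to -1.438) and a level 2.85-fold higher in replicate 1. Of 12552 genes with that mean count, 11.3% passed 2-fold in either direction and 6.09% were higher in replicate 1 by that much, so 1 of 7 is near the background. Ms4a7 came next, with 28285 and 12906 reads and a log2 ratio of -0.57 (-0.60 to -0.54), 1.49-fold higher in replicate 1. Ms4a4b was at -0.34, with an interval of -0.76 to 0.07 that includes 0. Ms4a6b was at -0.11, while Ms4a6d at -0.015, Ms4a4c at 0.00 and Ms4a6c at 0.12 were close to even. The sign turned for Ms4a6c with the ratio of TPM (-0.15), for Ms4a4c with library totals (-0.06) and with the second quantification (-0.04), and for Ms4a6d with DESeq2 size factors (0.01). The median log2 ratio was -0.11 over the 7 members and -0.03 over all 12552 genes, whose median fold was 1.29.

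**Figure D4:**
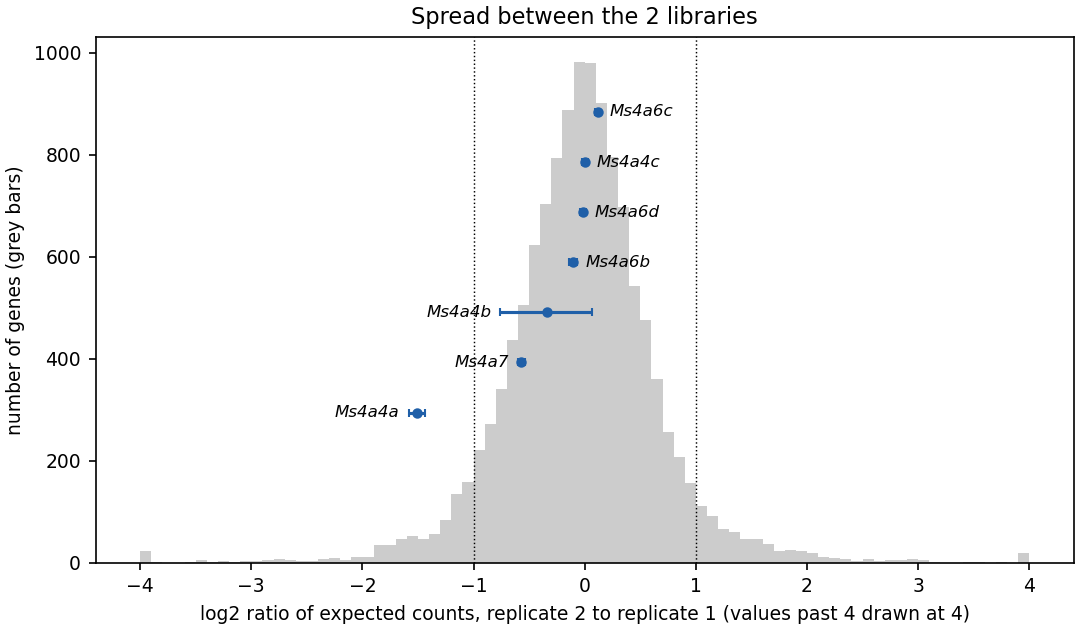
Log2 ratio of expected counts, replicate 2 to replicate 1, for 7 members (points, with exact 95% counting intervals, at arbitrary heights) over the histogram of all 12552 genes (grey bars, number of genes). Ms4a4a at -1.51 is the only member beyond the dotted 2-fold lines.

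Single transcripts of a gene did not always follow it. Ms4a6c-202, the retained-intron model, had 3897 reads in replicate 1 and 967 in replicate 2, 2.73-fold higher in replicate 1. Ms4a6c-201 had 35969 and 28369 reads, 1.16-fold higher in replicate 2. Ms4a7-202 was 2.28-fold higher in replicate 1, with 6540 and 1940 reads, while Ms4a7-203 was 1.31-fold higher there, with 19939 and 10292 reads. Of 8 granulocyte progenitor markers, 5 were under 1 TPM in both libraries, Mpo, Elane, Prtn3 and Ctsg among them. The other 3 were higher in replicate 1, as were 5 of the 7 members with a ratio and 6532 of all 12552 genes. S100a8 stood at 25.8 TPM against 3.72, S100a9 at 26.4 TPM against 1.18 and Ngp at 7.99 TPM against 0.40. The summed level of that list was 61.9 and 5.85 TPM, and its part in the member ratios was not tested. Genes of other lists differed both ways. The B cell marker Cd79b was 2.91-fold and the macrophage marker Fcgr1 1.86-fold higher in replicate 1. Cd14, another macrophage marker, was 1.95-fold higher in replicate 2.

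The rest of the gene cluster was mostly at very low levels. The interval from 10962293 to 11640851 on chromosome 19, 679 kb, holds 35 annotated genes, of which 22 are protein coding. In it 9 genes reached 10 TPM in both libraries: the 6 members, BE692007, Ms4a14 at 36.7 and 66.1 TPM, and the long noncoding RNA AW112010 at 1181 and 970 TPM. Of the 22 protein-coding genes of the interval, 7 reached 10 TPM in both, beside 27.2% of all annotated protein-coding genes. These 7 are the 6 members and Ms4a14, the only protein-coding gene outside the members to reach it. Of the 35, 22 were under 1 TPM in both, Ms4a1 among them. The share of all genes under 1 TPM was not computed. Only 12552 of 55536 annotated genes had a mean expected count of at least 10, so low levels were common beyond this cluster. Genes of high and very low level lay side by side: Ms4a4b lies between Ms4a4c and Ms4a6c, and Ms4a4d, at 0.18 and 0.00 TPM, lies beside Ms4a6b.

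**Figure D5:**
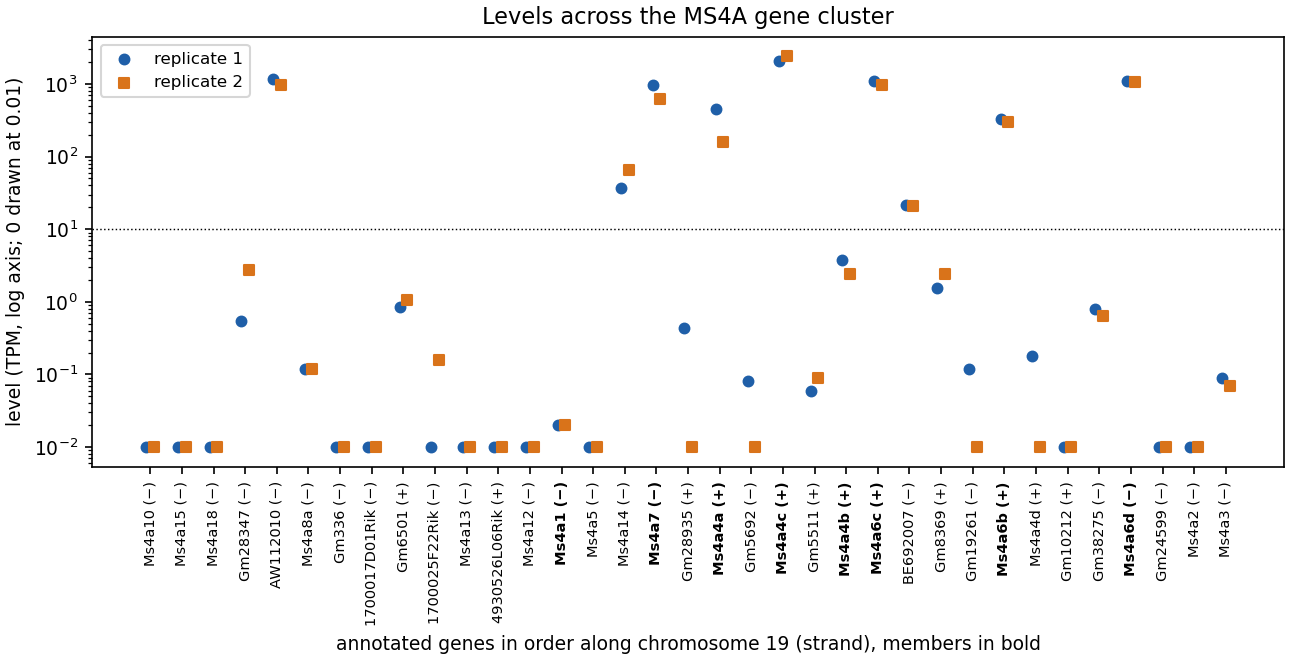
Level in TPM (log axis, 0 drawn at 0.01) of the annotated genes of the MS4A cluster in their order along chromosome 19, with members in bold and replicate 1 (circles) and replicate 2 (squares) side by side. Ms4a4c, at 2038 and 2404 TPM, stands between the pseudogenes Gm5692, at 0.08 and 0 TPM, and Gm5511, at 0.06 and 0.09 TPM.

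Of 15 other MS4A and related TMEM176 genes, 12 were under 1 TPM in both libraries and 8 of these were listed at 0, Ms4a2 among them. The 3 present were Ms4a14, Tmem176a at 101 and 53.5 TPM and Tmem176b at 139 and 110 TPM. These 3 of 15 reached 10 TPM in both libraries, beside 27.2% of all annotated protein-coding genes. Among 7 receptors and signalling partners linked to MS4A proteins, 5 reached 10 TPM. Fcer1g, the gamma chain shared by Fc receptors, was at 4171 and 3875 TPM, and Tyrobp, the adaptor DAP12, at 1990 and 1285 TPM. The receptors Trem2, at 305 and 208 TPM, and Clec7a, which encodes dectin-1, at 92.6 and 72.3 TPM, and the kinase Syk, at 331 and 435 TPM, are named after their values were seen. Fcer1a and Tnfrsf18 were under 1 TPM.

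Cell identity was checked with marker lists. All 8 macrophage markers reached 10 TPM in both libraries, led by Lyz2 at 8979 and 9815 TPM and Cd68 at 2852 and 4047 TPM. Among monocyte markers, Ly6c2 was at 35.7 and 40.0 TPM, and Spn, Ccr2 and Treml4 exceeded 1 TPM in at least 1 library. All 10 T cell and all 6 natural killer cell markers were under 1 TPM, with Bcl11b listed at 0. Of 9 mast cell and basophil markers 8 were under 1 TPM, with Hdc, histidine decarboxylase, at 5.21 and 6.99 TPM, and of 7 dendritic cell markers 6 were, with Itgax, an integrin chain, at 4.14 and 0.85 TPM.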

How the data were processed

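PolyA plus RNA-seq of 2 libraries, 1 group, was read from the deposited tables. Build mm10 and GENCODE M21 are named in the notes the authors deposited. The deposited gene and transcript tables, from transcriptome alignments, give expected counts, TPM and, for transcripts, the percent of a gene's abundance. A second deposited transcript table, from reads without alignments, gives estimated counts and TPM, and was summed to genes here. The authors' posterior SD of the count was used for Ms4a6c. No program, version or strand setting is given in the sources used here.

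Levels are the deposited TPM with mean ± SD. Ratios used expected counts rounded to whole reads for intervals, a prior of 0.5 reads and TMM sizes from edgeR 4.0.16, and were checked on simulated data. Intervals are exact (Clopper-Pearson for ratios, Poisson for reads) and cover counting error only. Motifs were found by matching letters in RefSeq windows, and sequence runs by direct comparison of those windows or of GENCODE M21 transcripts. Global alignments were made with Biopython 1.88, scored 1 for a match, -1 for a mismatch, -4 to open and -0.5 to extend a gap. With 1 group no condition was tested. Each library had 81881 rows, of which 55536 annotated genes were used.

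Named genes are all 8 members, other MS4A and TMEM176 genes at 1 TPM or more, the 2 highest of each other list and other cell types' markers at 1 TPM or more. A marker gene is not reported here. Motifs, the coding-transcript scales and further names were chosen after values were seen. The members and lists were chosen with earlier results of these data known. Alternatives tried were size factors from DESeq2 1.42.0, totals of the libraries, TPM ratios with a pseudocount of 0.01, a prior of 5 reads, other thresholds, TPM rescaled to protein-coding nuclear genes, the second quantification and leaving out either library.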

Additional observations from a re-analysis of the deposited data

How the results depend on the processing

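The summed family level of 5751 TPM was 4953 TPM in the second quantification and 6594 TPM after rescaling to protein-coding genes outside the mitochondrial genome. It was 3795 TPM over complete coding transcripts only and 3986 TPM with gene reads over the leading complete coding transcript, both chosen after the data were seen. The fall on these last scales comes mostly from Ms4a4c, at 546 and 667 TPM in place of 2221 TPM. Leaving out either library gave 5531 to 5972 TPM. The count of 6 members at 10 TPM held at 5 and 20 TPM, in the second quantification, on each scale tried and without either library, and was 7 at 1 TPM. The count of 1 member past 2-fold held under each alternative tried, with the log2 ratio of Ms4a4a between -1.57 and -1.49. The mean level of Ms4a4b, 3.095 TPM, was 8.12 TPM in the second quantification and 0.605 TPM over its complete coding models. The leading transcript was the same in both quantifications for 6 of 8 members. No paired analysis was possible because there is 1 group. With 2 libraries the SD is imprecise, and below the floor of 3 reads, as for Ms4a1, depth sets the limit.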
